A study of Mus musculus with 9 samples.

Results

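The AP-1 subunits are the basic leucine zipper proteins of the Jun and Fos families and their close relatives. The 8 described here are Jun, Junb, Jund, Fos, Fosb, Fosl2, Atf3 and Batf. Their transcripts were measured in splenic follicular B cells sorted from mice of 3 immunoglobulin heavy chain genotypes. A probe set counted for a subunit when the array annotation gave it that symbol and no other. This rule found 9 probe sets, 1 for each of 7 subunits and 2 for Jund, and the brightest probe set over all arrays stood for its gene. The subunits were 8 of 22180 named genes, and all 8 were among the 12170 genes bright enough to be tested.

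The series held 9 arrays, 3 for each genotype. The labels give the genotypes as Igh[epsilon]/[epsilon] VJk5, Igh[gamma]1/[gamma]1 VJk5 and Ighwt VJk5, written here as ε/ε, γ1/γ1 and wild-type. All groups carried VJk5, which the labels do not explain, and the sources used here do not give how the ε and γ1 alleles were built. The mice were 6 to 12 weeks old and are called polyclonal in the series' design. The title places the comparison in the question of how the isotype and dosage of the B cell receptor regulate B cell fate. The replicates are described as independent, but nothing says that each came from a separate animal, so p-values measure only the spread between these samples.

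AP-1 is a dimer. Jun proteins pair with each other or with Fos proteins, while Fos proteins need a Jun partner, and the dimers bind the palindrome TGACTCA or the related cyclic AMP response element TGACGTCA. Several of the genes are immediate-early genes, which are transcribed within minutes of a stimulus, without new protein synthesis. In B cells, ligation of the antigen receptor is one such stimulus, acting through the MAP kinases, and so are stress and the handling of cells.

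The promoters of Jun, Junb and Fos are shown as examples from both families, since these 3 genes were among the 4 called in the comparison of ε/ε with wild-type cells. The other, Jund, is not shown because its window held none of the motifs searched. They were taken from RefSeq on GRCm38.p6, which held all 8 subunits, and run 5′ to 3′ on the strand of the gene from 250 bases before its start to base 50 of the transcript. Capitals mark the matches to the motifs listed after them. Jun lies on the minus strand at chr4:95052173-95052472, Junb on the minus strand at chr8:84978699-84978998, and Fos on the plus strand at chr12:85473640-85473939.
Jun: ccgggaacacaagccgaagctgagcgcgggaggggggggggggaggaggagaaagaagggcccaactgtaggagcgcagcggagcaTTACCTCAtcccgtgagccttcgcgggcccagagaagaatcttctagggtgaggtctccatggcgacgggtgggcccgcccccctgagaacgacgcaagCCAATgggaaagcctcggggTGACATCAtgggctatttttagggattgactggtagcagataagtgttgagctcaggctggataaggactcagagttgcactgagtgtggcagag
Junb: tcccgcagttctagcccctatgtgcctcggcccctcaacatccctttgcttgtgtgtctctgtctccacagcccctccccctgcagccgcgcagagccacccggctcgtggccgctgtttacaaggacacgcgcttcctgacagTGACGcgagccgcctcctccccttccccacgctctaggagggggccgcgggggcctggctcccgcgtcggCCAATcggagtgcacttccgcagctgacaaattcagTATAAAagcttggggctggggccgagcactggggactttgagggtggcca
Fos: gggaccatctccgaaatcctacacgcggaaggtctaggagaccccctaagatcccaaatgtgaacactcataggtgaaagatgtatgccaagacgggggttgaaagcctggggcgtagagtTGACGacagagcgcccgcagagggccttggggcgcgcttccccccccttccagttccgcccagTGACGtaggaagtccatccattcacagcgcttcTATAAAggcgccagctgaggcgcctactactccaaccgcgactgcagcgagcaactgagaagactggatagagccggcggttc

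Both strands of the 300-base windows were searched for 8 motifs, with positions counted from 1 at the first base of the transcript and no position 0. The Jun window held TGACATCA at -45 to -38 and TTACCTCA at -164 to -157, the letters of the AP-1-like sites known from the Jun promoter, and a CCAAT box from -65. Of all 32851 promoters in the RefSeq table, 3.62% held TGACATCA and 0.889% held TTACCTCA. The Fos window held TGACG, one side of the cyclic AMP response element, from -129 and from -66, and the TATA box letters TATAAA from -33. The Junb window held TGACG from -106, CCAAT from -36 and TATAAA from 1 to 6, inside the annotated transcript and not before its start. TGACG was found in 5 of the 8 subunits' windows (Junb, Fos, Fosb, Atf3 and Batf), against 20.8% of all promoters; TGACG also lies within TGACGTCA. TATAAA was found in 2 windows, against 13.6% of all promoters, and CCAAT in 3, against 37.4%. The full sites TGACTCA and TGACGTCA and the CArG box of serum response factor were in 0 of the 8 windows, against 5.20%, 1.79% and 1.63% of all promoters. Sequence more than 250 bases before the start was not searched, so these counts do not tell whether a gene has such sites there. The windows of Jund and Fosl2 held none of the 8 motifs.

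Before the comparisons, the labelled cell type and the arrays were checked. Ms4a1 (CD20), Cd79a, Cd79b, Pax5, Cr2 and Fcer2a (CD23, a follicular marker) were above the array median on all 9 arrays. The T cell marker Cd3e was above it on 0 arrays. Of the full list of 11 T cell markers, 1 to 4 were above it on each array. The plasma cell markers Sdc1 and Prdm1 were above it on 9 and 2 arrays. The NK cell marker Ncr1 was above it on 4 arrays and the platelet marker Pf4 on 1. Of the neutrophil markers, S100a8 was above it on 0 arrays and S100a9 on 1. Of the marginal zone markers, S1pr3 was above it on 0 arrays and Cd1d1 and Cd9 on all 9. The ε/ε replicate 1 array stood apart by macrophage transcripts. The mean log2 signal of 20 macrophage markers was 6.30, 4.52 and 4.11 on ε/ε replicates 1, 2 and 3, between 3.75 and 3.91 on the γ1/γ1 arrays and between 3.79 and 3.82 on the wild-type arrays. All 20 lay above the array median on ε/ε replicate 1 and 14 on each of the other ε/ε arrays, against 11 to 12 on γ1/γ1 arrays and 11 to 13 on wild-type arrays. Xist, transcribed from the inactive X chromosome, had a log2 signal of 5.25 on ε/ε replicate 1 and 4.53 on γ1/γ1 replicate 1, and 10.37 to 10.79 on the other 7 arrays. The Y-linked gene Eif2s3y was at 7.40 and 7.99 on those 2 arrays, at 5.40 on ε/ε replicate 2 and at 2.75 to 3.64 on the other 6. Kdm5d, also Y-linked, was at 5.90 and 6.08 on the arrays with low Xist, at 4.50 on ε/ε replicate 3 and at 2.22 to 3.26 on the others, so 2 of the arrays with high Xist, both ε/ε, also had raised signal of a Y-linked gene. Results for the subunits are therefore also given without ε/ε replicate 1 and over the 7 arrays with high Xist. The labels do not give the sex of the mice. In sorted populations, fewer cells of a type and less RNA per cell cannot be told apart.

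Jun, Junb, Jund and Fos, 4 genes of the Jun and Fos families, were higher in ε/ε than in wild-type follicular B cells. Their signals were 2.91 to 5.16 times those of wild-type cells. Fosb differed by a like amount and missed the threshold, Fosl2, Atf3 and Batf did not pass it, and 0 of the 8 were called in γ1/γ1 against wild-type cells. A gene was called at an adjusted p under 0.05 in limma, adjusted over all 12170 genes. By that rule 6.34% of all tested genes were called in ε/ε against wild-type cells, 2.33% as higher, and the 4 subunits of 8 are read against that share. The called genes were 283 higher and 489 lower, and 410 higher and 300 lower when the deposited values were quantile normalized first. The median log2 fold change was 1.60 over the 8 subunits and -0.013 over all tested genes.

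**Figure D1:**
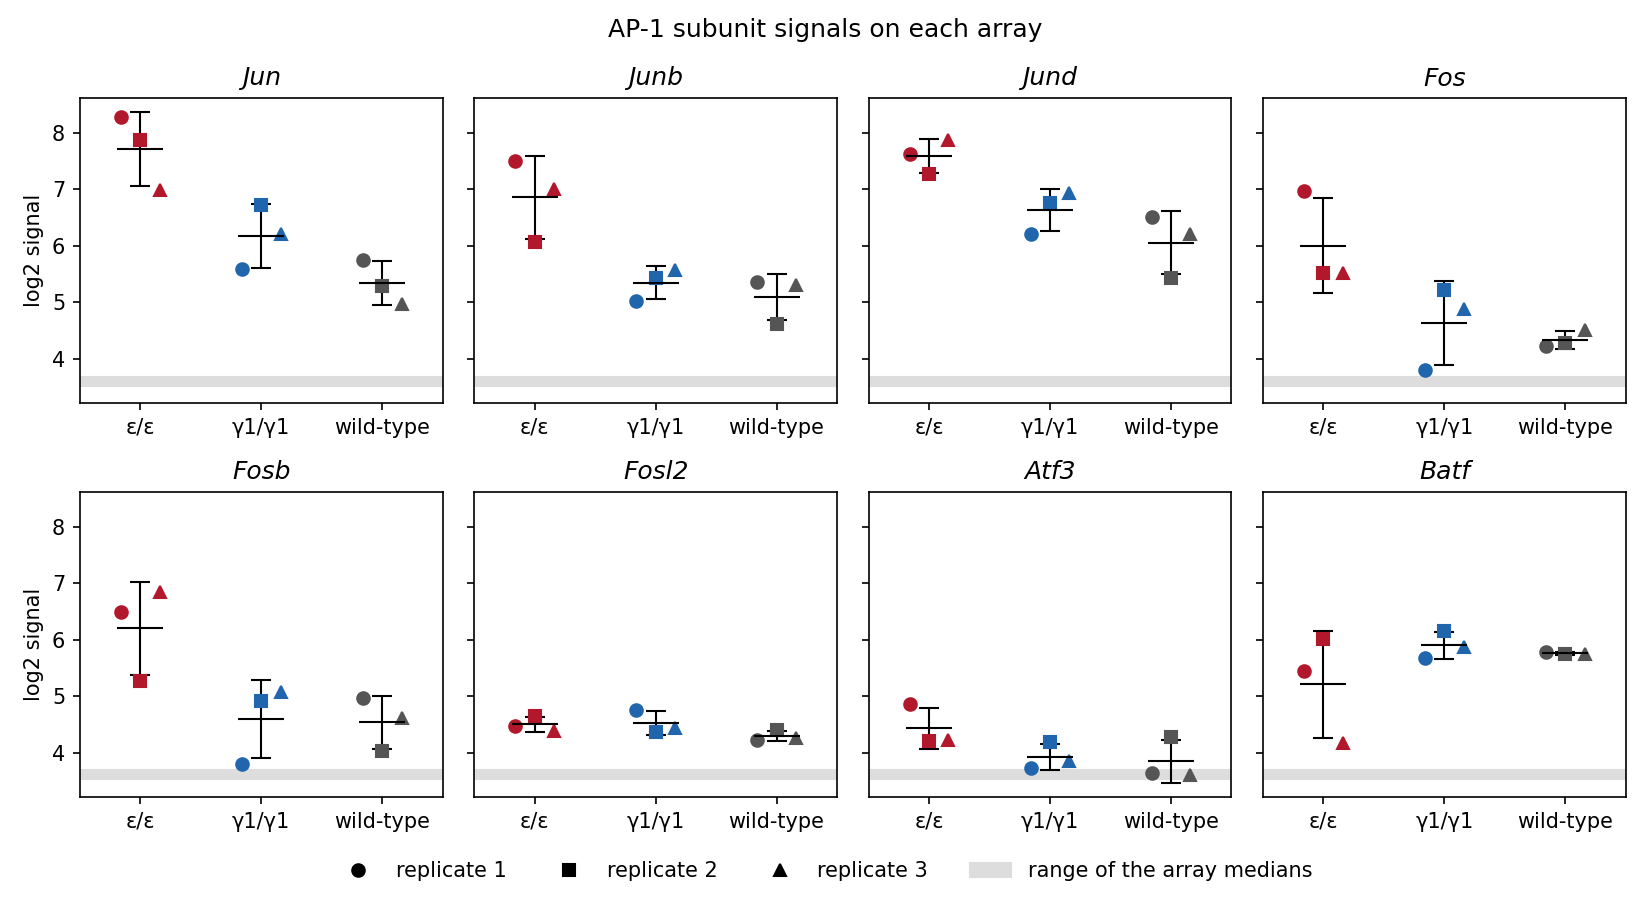
Log2 signal of the brightest probe set of each AP-1 subunit on each of the 9 arrays (vertical axis), by genotype (horizontal axis). Points are arrays, with a shape for each replicate number, long bars are means, error bars are SD (n = 3), and the grey band spans the array medians, 3.53 to 3.69. For Jun, Junb, Jund, Fos and Fosb the 3 ε/ε arrays lie above the other 6.

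Jun encodes c-Jun, the founding subunit, which can form homodimers and was among the genes with the greatest differences in the series. Its log2 signal was 8.27, 7.87 and 6.99 on ε/ε arrays, 5.59, 6.73 and 6.20 on γ1/γ1 arrays and 5.76, 5.30 and 4.98 on wild-type arrays. The lowest ε/ε value lay above every other array, and the γ1/γ1 and wild-type arrays overlapped through γ1/γ1 replicate 1. The means were 7.71 ± 0.66 for ε/ε, 6.17 ± 0.57 for γ1/γ1 and 5.34 ± 0.39 for wild-type cells (SD, n = 3 each). The log2 fold change of ε/ε over wild-type cells was 2.37 (SE 0.37, 95% confidence interval 1.55 to 3.18, limma adjusted p = 0.00745), a 5.16-fold difference. Jun ranked 16 by size of the increase and 111 by p among the 12170 genes. It was called with each of the 9 arrays left out in turn, at adjusted p-values of 0.00595 to 0.0415.

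Junb encodes a partner that can take the place of c-Jun in dimers and activates many of its targets less strongly. Its log2 signal was 7.51, 6.06 and 7.01 on ε/ε arrays, 5.02, 5.44 and 5.58 on γ1/γ1 arrays and 5.35, 4.62 and 5.30 on wild-type arrays. The 3 ε/ε arrays lay above the other 6, whose values were interleaved. The means were 6.86 ± 0.73 for ε/ε, 5.34 ± 0.29 for γ1/γ1 and 5.09 ± 0.41 for wild-type cells. Junb was 3.40-fold higher in ε/ε than in wild-type cells, a log2 fold change of 1.77 (SE 0.34, limma adjusted p = 0.0176). The call held in 7 of the 9 fits that left out an array and was lost without wild-type replicate 2 (adjusted p = 0.0811) or wild-type replicate 3 (adjusted p = 0.0555), and with only the 6 arrays compared (adjusted p = 0.0583).

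Jund encodes the most broadly and steadily expressed Jun protein, and is less often counted among the immediate-early genes. The log2 signal of its brighter probe set was 7.62, 7.28 and 7.88 on ε/ε arrays, 6.22, 6.75 and 6.94 on γ1/γ1 arrays and 6.52, 5.43 and 6.20 on wild-type arrays. The ε/ε arrays stood above all others with a narrow spread, at 7.59 ± 0.30, against 6.64 ± 0.37 for γ1/γ1 and 6.05 ± 0.56 for wild-type cells. The difference between ε/ε and wild-type cells was 1.54 on the log2 scale (SE 0.29, limma adjusted p = 0.0156), or 2.91-fold. It too lost its call without wild-type replicate 2 (adjusted p = 0.0565) or replicate 3 (adjusted p = 0.0546), both near the threshold. The second Jund probe set read 5.88, 5.99 and 5.73 on ε/ε arrays, 5.08, 5.27 and 5.58 on γ1/γ1 arrays and 5.50, 5.16 and 5.36 on wild-type arrays. Its ε/ε arrays were again above all others, but the difference of 0.53 from wild-type did not pass when every probe set was tested on its own (limma adjusted p = 0.114). In that fit the brighter probe set passed for the same comparison (limma adjusted p = 0.0303). The 2 probe sets agreed in direction there and not in size, and against wild-type cells γ1/γ1 differed by 0.59 on the first and -0.027 on the second. Their mean gave an ε/ε over wild-type log2 fold change of 1.03 (adjusted p = 0.0203).

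Fos encodes c-Fos, which binds DNA only with a Jun partner. Its log2 signal was 6.97, 5.52 and 5.52 on ε/ε arrays, 3.80, 5.23 and 4.89 on γ1/γ1 arrays and 4.22, 4.28 and 4.52 on wild-type arrays. The ε/ε arrays did not overlap the others, yet replicate 1 stood well above its 2 fellows, and γ1/γ1 spanned values both above and below all wild-type arrays. The means were 6.00 ± 0.84 for ε/ε, 4.64 ± 0.75 for γ1/γ1 and 4.34 ± 0.16 for wild-type cells. Fos was 3.18-fold higher in ε/ε than in wild-type cells, 1.67 on the log2 scale (SE 0.43), just inside the threshold (limma adjusted p = 0.0479). Of the 9 fits without an array, 1 kept the call, that without γ1/γ1 replicate 1, and the adjusted p ranged from 0.0324 to 0.156. The call was also lost with no filter on dim genes (adjusted p = 0.0783), with only the 6 arrays compared (0.0695) and with low Xist as a covariate (0.0782). It was lost too when every probe set was tested on its own (limma adjusted p = 0.0774).

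Fosb encodes a second Fos protein, with a shorter splice form, ΔFosB, that the probe set was not used to tell apart. Its log2 signal was 6.49, 5.28 and 6.84 on ε/ε arrays, 3.80, 4.92 and 5.07 on γ1/γ1 arrays and 4.96, 4.03 and 4.62 on wild-type arrays. All ε/ε values were above all others, by a small margin for replicate 2. The means were 6.20 ± 0.82 for ε/ε, 4.59 ± 0.69 for γ1/γ1 and 4.54 ± 0.47 for wild-type cells. The difference from wild-type was 1.66 (SE 0.44), as for Fos, but the limma adjusted p of 0.0523 fell just outside the threshold. It passed in 2 of 9 fits without an array and under 4 of 11 other settings, so Fos and Fosb sat on opposite sides of the threshold with nearly the same difference.

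Fosl2, Atf3 and Batf were not called. Fosl2 encodes Fra-2, a Fos-related protein without the strong activation domain of c-Fos. It read 4.47, 4.65 and 4.39 on ε/ε arrays, 4.76, 4.36 and 4.44 on γ1/γ1 arrays and 4.23, 4.41 and 4.26 on wild-type arrays. The groups overlapped within a range of 0.54, and the difference of ε/ε from wild-type was 0.20 (SE 0.15, 95% confidence interval -0.13 to 0.54, limma adjusted p = 0.441). Atf3 encodes a stress-induced subunit that represses as a homodimer. It read 4.86, 4.21 and 4.23 on ε/ε arrays, 3.74, 4.19 and 3.85 on γ1/γ1 arrays and 3.65, 4.29 and 3.61 on wild-type arrays. Only ε/ε replicate 1 lay above every wild-type array, and several values were near the array medians, where a difference is harder to measure. The Atf3 difference was 0.59 (SE 0.24, limma adjusted p = 0.167).

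Batf encodes a subunit without an activation domain of its own, which pairs with Jun proteins, cooperates with Irf4 and Irf8, and is required for class switch recombination in B cells. It read 5.45, 6.01 and 4.17 on ε/ε arrays, 5.68, 6.15 and 5.88 on γ1/γ1 arrays and 5.78, 5.74 and 5.74 on wild-type arrays. The wild-type arrays were almost alike, and ε/ε replicate 3 was the lowest of the 9 while ε/ε replicate 2 was above all wild-type arrays. The mean was 5.21 ± 0.95 for ε/ε, 5.90 ± 0.24 for γ1/γ1 and 5.76 ± 0.024 for wild-type cells. The difference of ε/ε from wild-type was -0.55 (SE 0.37, limma adjusted p = 0.394), and it shrank to -0.028 without ε/ε replicate 3.

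Taken array by array, 7 of the 8 subunits on ε/ε replicate 1 were above all 3 wild-type arrays, 7 on replicate 2 and 5 on replicate 3, where 29.9%, 27.7% and 33.3% of all tested genes were. In 5 of 8 the 3 ε/ε arrays all lay above the 3 wild-type arrays, as they did in 11.8% of all tested genes. These 5 were the 3 Jun genes, Fos and Fosb. The median difference of the 8 subunits from the wild-type mean was 1.76, 0.85 and 1.41 on ε/ε replicates 1, 2 and 3. Replicate 1 had the highest Jun, Junb, Fos and Atf3 of the 9 arrays, and replicate 3 the highest Jund and Fosb.

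On ε/ε replicate 3 Jun was 6.99 and Fos 5.52, the lowest ε/ε values of both, with Fos almost the same on replicate 2. On replicate 3 Junb was 7.01, and Jund at 7.88 and Fosb at 6.84 had their highest values in the series. The 20 macrophage markers averaged 4.11 on this array, against 3.79 to 3.82 on the wild-type arrays, and among them Csf1r, Vcam1 and Adgre1 read 3.50, 3.76 and 3.72. On the wild-type arrays those markers read 3.23 to 3.31, 3.63 to 3.99 and 3.64 to 4.06, while C1qa read 4.95 on ε/ε replicate 3 and 3.80 to 4.48 on the wild-type arrays. On ε/ε replicate 2 the 20 markers averaged 4.52, and Csf1r, Vcam1, Adgre1 and C1qa read 5.15, 5.14, 3.91 and 4.99. The fits that follow kept ε/ε replicate 2. Without ε/ε replicate 1, Jun was 2.08 higher in ε/ε than in wild-type cells on the log2 scale (limma adjusted p = 0.0240), Junb 1.44 (0.0426) and Jund 1.53 (0.0424), and all 3 were still called. Fos differed by 1.18 and Fosb by 1.52, neither of which was called (adjusted p = 0.0980 and 0.131). Over the 7 arrays with high Xist, which lack the same array and γ1/γ1 replicate 1, the 3 Jun genes and Fos were called (adjusted p = 0.0155 for Fos) and Fosb was not (adjusted p = 0.0977). The part of macrophage transcripts in the AP-1 differences was not tested.

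**Figure D2:**
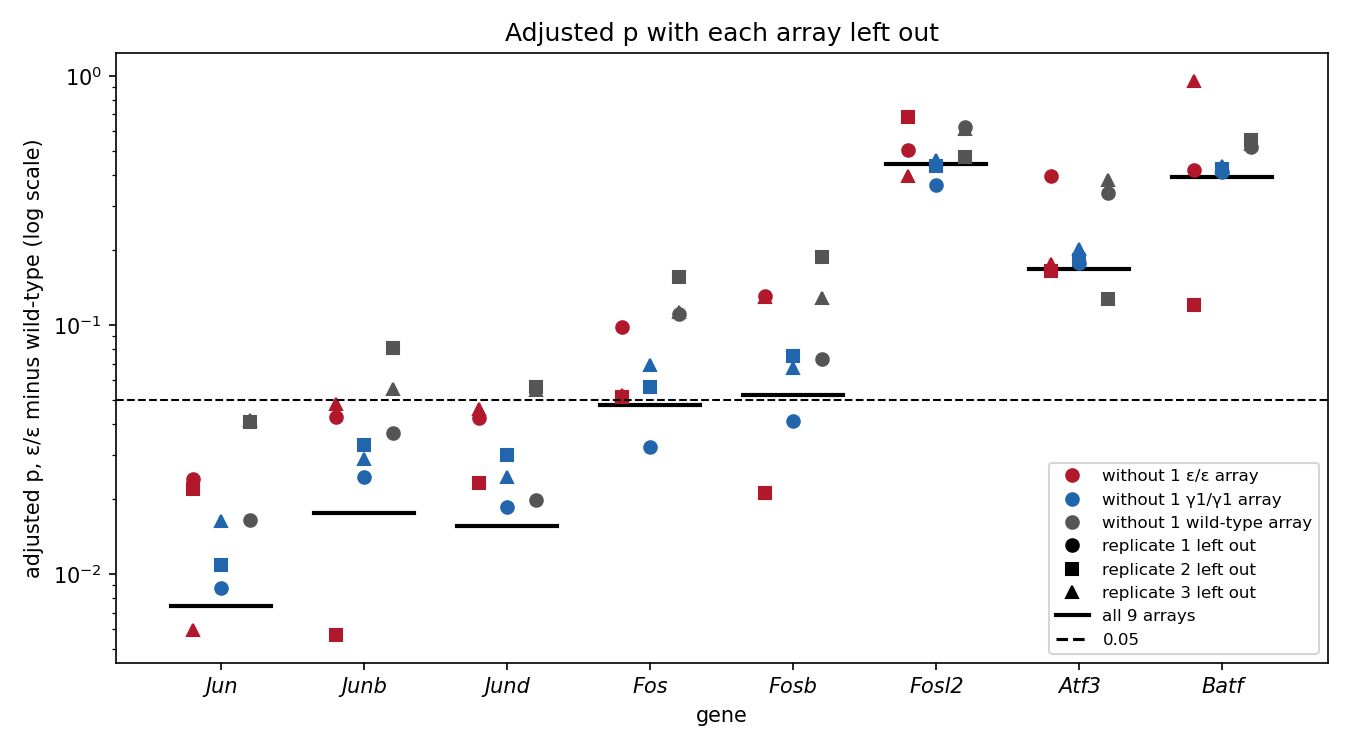
Adjusted p of each AP-1 subunit in the comparison of ε/ε with wild-type cells (vertical axis, log scale), by gene (horizontal axis), from limma fits that each left out 1 array. Colours give the genotype and shapes the replicate number of the array left out, bars the fit to all 9 arrays, and the dashed line the threshold of 0.05. Every point of Jun lies under the line, Junb and Jund cross it without wild-type replicate 2 or 3, and Fos and Fosb lie on both sides.

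In γ1/γ1 against wild-type cells, 0 of 8 subunits were called by limma, and 0 of 8 under each alternative setting. Without adjustment, 1 of 8 had a p under 0.05, as did 830 of the 12170 genes. In this comparison 0.0411% of all tested genes were called, 5 genes, so a call was rare for any gene. The differences were 0.83 for Jun (SE 0.37, 95% confidence interval 0.015 to 1.64, adjusted p = 0.725), 0.59 for Jund, 0.30 for Fos, 0.25 for Junb, 0.22 for Fosl2, 0.14 for Batf, 0.078 for Atf3 and 0.058 for Fosb. All 8 were positive with a median of 0.24, against -0.018 over all genes, and in 0 of 8 did the γ1/γ1 arrays all lie above the wild-type arrays, against 4.68% of all genes.

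The γ1/γ1 arrays differed among themselves. On γ1/γ1 replicate 1, Fosl2 was the 1 subunit above all wild-type arrays, and Fos and Fosb had their lowest values in the series there. On replicates 2 and 3, 5 and 7 subunits were above all wild-type arrays, where 25.5% and 25.1% of all tested genes were, against 23.2% on replicate 1. The median difference from the wild-type mean was -0.078, 0.39 and 0.51 on the 3 arrays. Replicate 1 is also the γ1/γ1 array with low Xist. Over the 7 arrays with high Xist, the Jun difference was 1.12 and that of Fos 0.72, and neither was called.

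The 95% confidence intervals bound the differences of γ1/γ1 from wild-type. A value of 1 on the log2 scale lay inside the interval for Jun, Junb (upper bound 1.01), Jund (1.23), Fos (1.26) and Fosb (1.04) and above it for Fosl2 (0.56), Atf3 (0.61) and Batf (0.98).

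**Figure D3:**
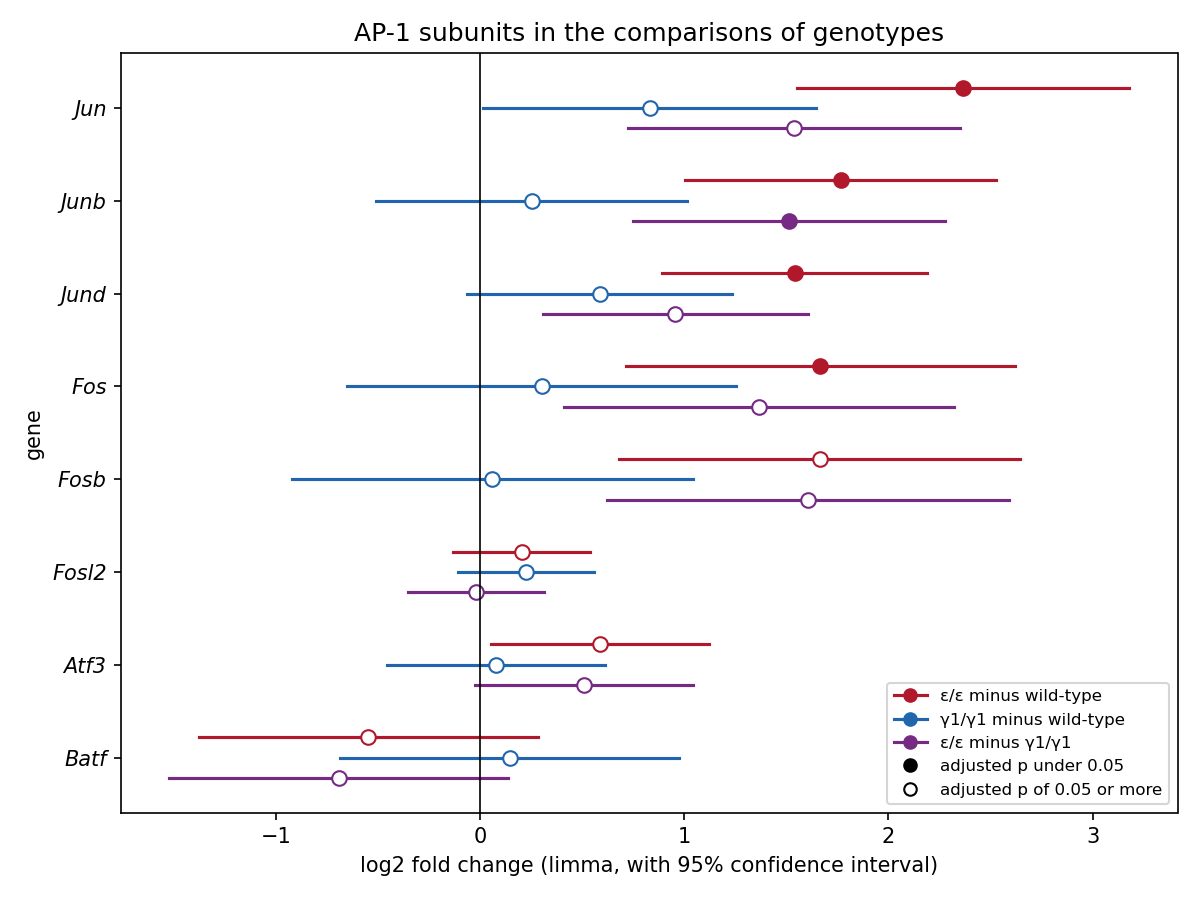
Log2 fold change of each AP-1 subunit (horizontal axis) for ε/ε minus wild-type (red), for γ1/γ1 minus wild-type (blue) and for ε/ε minus γ1/γ1 (purple), with 95% confidence intervals from limma, by gene (vertical axis). Filled points have an adjusted p under 0.05: Jun, Junb, Jund and Fos in ε/ε minus wild-type and Junb in ε/ε minus γ1/γ1.

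In ε/ε against γ1/γ1 cells, which share the ε/ε and γ1/γ1 arrays with the comparisons already given, 1 of 8 subunits was called, where 2.66% of all tested genes were called and 1.02% as higher. Junb was 2.86-fold higher in ε/ε than in γ1/γ1 cells, 1.51 on the log2 scale (SE 0.34, limma adjusted p = 0.0489). This call was near the threshold and held in 1 of the 9 fits without an array (without ε/ε replicate 2), with adjusted p-values up to 0.138. Over the 7 arrays with high Xist the Junb difference was 1.03 (adjusted p = 0.221), and the call was also lost with no filter on dim genes (0.0710) and with only the 6 arrays compared (0.122). Jun differed by 1.54 (SE 0.37, 2.90-fold, adjusted p = 0.0542), Fosb by 1.61 (0.0822), Fos by 1.37 (0.118) and Jund by 0.95 (0.113). These 5 genes had confidence intervals above 0, and 5 of 8 subunits had an unadjusted p under 0.05, as did 2417 of all tested genes. In 6 of 8 the ε/ε arrays all lay above the γ1/γ1 arrays, as in 9.86% of all genes, the sixth being Atf3 (0.51, adjusted p = 0.274). Fosl2 differed by -0.021 (adjusted p = 0.955), a direction that turned to 0.016 after quantile normalization and 0.042 after centring on the array medians, and Batf by -0.69 (adjusted p = 0.334).

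The order of the genotype means was ε/ε, γ1/γ1, wild-type for Jun, Junb, Jund, Fos, Fosb and Atf3. For these 6 the γ1/γ1 and wild-type means were not told apart by the limma test, and ε/ε and γ1/γ1 were told apart for Junb. For Fosl2 and Batf γ1/γ1 had the highest mean, and no 2 neighbours in the order were told apart by the test.

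Across the 9 arrays, Pearson's r was 0.74 to 0.95 over the 10 pairs of the 5 Jun and Fos genes with separate ε/ε arrays. Over all 28 pairs of the 8 subunits it was -0.66 to 0.95. The 5 were grouped by their ε/ε values on these same arrays, a choice that favours high coefficients between them. These coefficients include the differences between genotypes. After the genotype means were subtracted, r over the 10 pairs ranged from 0.17 (Jun with Jund) to 0.88 (Jund with Fosb). It was 0.86 for Junb with Fosb, 0.71 for Jun with Fos and 0.25 for Jun with Junb. Over all 28 pairs it then ranged from -0.93 to 0.88. These are descriptions over 9 arrays that share their genotypes and, on some arrays, the macrophage signal.

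By the same measure the 5 genes most like Jun over the 9 arrays were Hspb1 (r = 0.98), a small heat shock protein, Cnp and Runx3 (0.97 each), Grn (0.96) and Ppp1r15a (0.95), a stress-induced phosphatase subunit. The 5 most like Junb were Lgals3bp (0.98), Myg1 (0.97) and Usp50, Maea and BC064078 (0.96 each). The 5 most like Jund were Tln1, Isg20 and Zfp36l1 (0.98 each), Sipa1 and Tmbim6 (0.97 each). For Fos they were Ctsd (0.96), a lysosomal protease, and Lgals3bp, Spic, Maea and Map7d1 (0.95 each, all of them below Ctsd). Ctsd and Spic, a factor of splenic red pulp macrophages, belong to the list of macrophage markers, and the macrophage share in the Fos values was not tested.

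Genes around AP-1 were read from lists of its regulators, partners and relatives. Among 29 other immediate-early genes, 8 were higher and 0 lower in ε/ε, set against wild-type cells, with a median of 0.52. Of all tested genes 2.33% were higher and the median was -0.013. Rgs1, which dampens chemokine receptor signalling, was 2.51 higher on the log2 scale (5.90 ± 1.04 in ε/ε and 3.38 ± 0.12 in wild-type cells, limma adjusted p = 0.00997). Ppp1r15a was 1.96 higher (adjusted p = 0.00552), Dusp1, a phosphatase of MAP kinases, 1.68 higher (0.00607) and the transcription factor Klf4 1.09 higher (0.00745). The count fell to 4 without ε/ε replicate 1, to 4 without wild-type replicate 2 or 3, to 5 without γ1/γ1 replicate 3, and to 5, with 1 other gene called as lower, without γ1/γ1 replicate 2. In ε/ε against γ1/γ1 cells 4 of the 29 were higher, where 1.02% of all tested genes were. In γ1/γ1 against wild-type cells 0 were called, and 3 of the 29 had an unadjusted p under 0.05, as did 830 of all tested genes. The ε/ε against γ1/γ1 count was 2 without ε/ε replicate 1 and 1 without γ1/γ1 replicate 1 or 3.

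Some heat shock genes, which protein damage and other stress induce, were also higher. Of 14, 3 were higher in ε/ε than in wild-type cells, Hspb1 (1.57, adjusted p = 0.00558), Dnajb1 (1.36, 0.0126) and Hsph1 (1.28, 0.0184), and 0 were lower, where 2.33% of all tested genes were higher. The median over the 14 was 0.31, against -0.013 over all genes. The count was 2 without any 1 of the wild-type arrays, 5 without γ1/γ1 replicate 3 and 3 to 4 without any other array. Against γ1/γ1 cells, 2 of the 14 were higher, where 1.02% of all tested genes were. Of the 14, 0 were higher there without ε/ε replicate 1 or without γ1/γ1 replicate 1 or 3. The median difference from the wild-type mean was 0.52, 0.17 and 0.23 on ε/ε arrays and -0.071, 0.15 and -0.13 on γ1/γ1 arrays. For the other immediate-early genes it was 0.75, 0.27 and 0.52 on ε/ε arrays and 0.068, 0.29 and 0.14 on γ1/γ1 arrays. By this median, ε/ε replicate 1 was the highest ε/ε array and replicate 2 the lowest in both lists and in the AP-1 subunits. By mean log2 signal, replicate 3 was the lowest ε/ε array for the heat shock genes (8.01, 7.70 and 7.37 on replicates 1, 2 and 3). The part of either list in the AP-1 result was not tested.

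**Figure D4:**
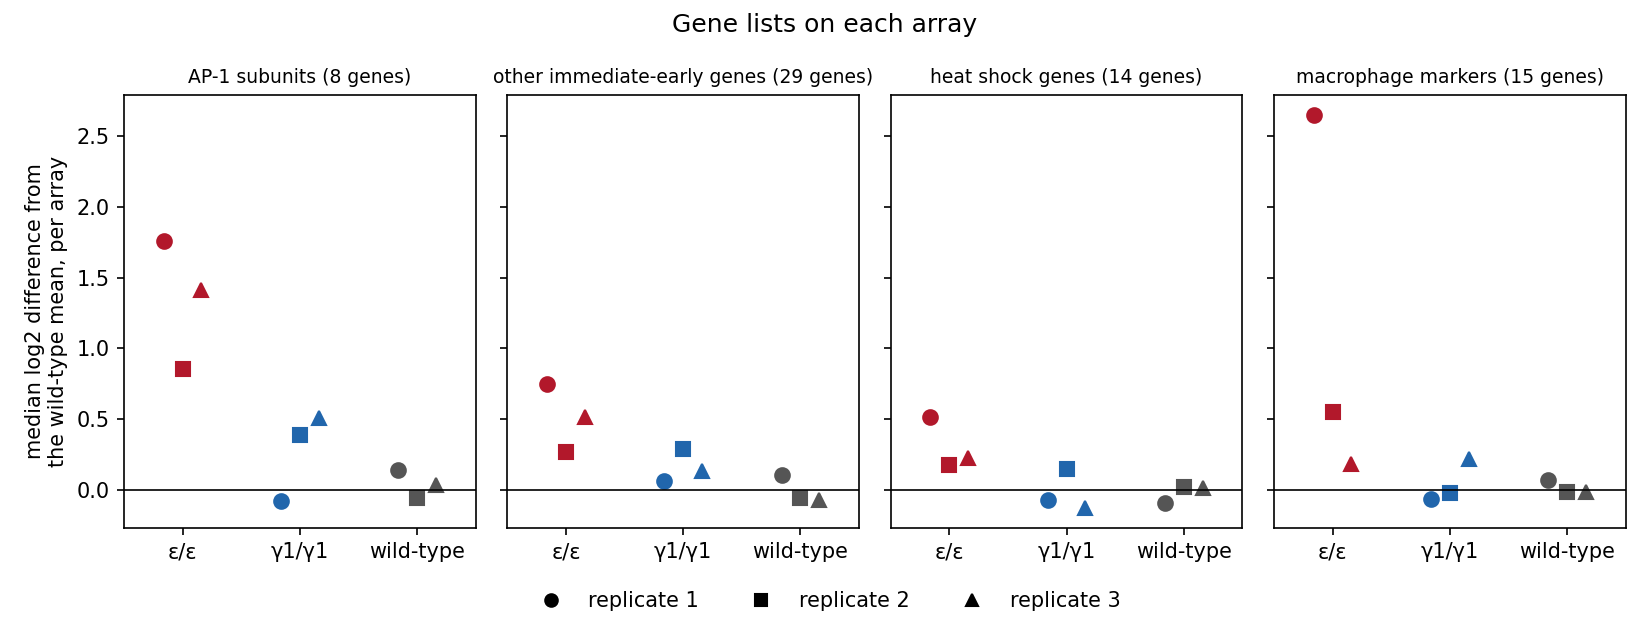
Median log2 difference from the wild-type mean (vertical axis) on each array, by genotype (horizontal axis), for the AP-1 subunits, other immediate-early genes, heat shock genes and macrophage markers that were tested. Points are arrays, with a shape for each replicate number. On ε/ε replicates 1, 2 and 3 the macrophage median is 2.65, 0.55 and 0.18, and the AP-1 median is 1.76, 0.85 and 1.41.

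Of 15 tested macrophage markers, 0 were called in ε/ε against wild-type cells, where their median difference was 1.20. Of the 15, 6 had an unadjusted p under 0.05, as did 3016 of the 12170 tested genes. Among the markers the smallest p belonged to C1qb and C1qa, subunits of complement C1q, at 2.39 (limma adjusted p = 0.0505) and 1.22 (adjusted p = 0.0509). Marginal zone B cell markers also differed with the genotype. In ε/ε against wild-type cells 7 of 15 were higher and 0 lower, led by Il9r (2.82), Ackr3 (2.28), Myof (1.68) and Hes1 (1.17), at adjusted p-values of 0.00127 to 0.00439. The count was 7 without ε/ε replicate 1 and 5 to 7 over all 9 fits without an array. Of all tested genes 2.33% were higher, and the median difference was 0.82 over the 15 markers and -0.013 over all genes. In γ1/γ1 against wild-type cells 1 of the 15 was called, Il9r, at 2.98 (adjusted p = 0.0122), where 0.0411% of all tested genes were called. In ε/ε against γ1/γ1 cells 5 of the 15 were higher, where 1.02% of all tested genes were. This last count was 3 without any 1 of ε/ε replicates 1 and 2, the γ1/γ1 arrays and wild-type replicate 3. Of 11 B cell markers 1, Blnk, was higher in ε/ε than in wild-type cells (0.79, adjusted p = 0.0156), where 2.33% of all tested genes were. The marginal zone marker Cd1d1 read 4.82 to 4.89 on ε/ε arrays and 4.89 to 5.20 on wild-type arrays. Cd9 read 4.13 to 4.31 on ε/ε arrays and 3.94 to 4.30 on wild-type arrays. S1pr3, under the array median throughout, read 2.78 to 2.91 and 2.67 to 2.76. The follicular marker Fcer2a read 9.36 to 9.97 on ε/ε arrays and 9.02 to 9.51 on wild-type arrays, and Cr2 9.09 to 9.20 and 8.84 to 8.99. Of the tested markers of neutrophils (1), T cells (2), NK cells (4), dendritic cells (5), plasma cells (5) and erythroid cells and platelets (2), limma called 0 in any comparison. Of these markers 5 in all had an unadjusted p under 0.05 in ε/ε against wild-type cells, as did 3016 of all tested genes. The part of marginal zone transcripts in the AP-1 differences was not tested.

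Other genes of the basic leucine zipper family were called about as often as genes at large when both directions were counted. Of 31 tested genes outside the 8, 2 were higher and 0 lower in ε/ε, set against wild-type cells, with a median of 0.18. The share called in either direction was 6.45%, against 6.34% of all tested genes. As higher, 2.33% of all tested genes were called. The 2 genes called were Cebpb and Maff. Cebpb, a factor of inflammatory and myeloid gene expression, was at 4.94 ± 0.31 in ε/ε against 3.71 ± 0.36 in wild-type cells (1.23, limma adjusted p = 0.0156). Maff, a small Maf protein, differed by 0.84 (adjusted p = 0.0416). Cebpb was also higher in ε/ε than in γ1/γ1 cells (1.32, adjusted p = 0.0177), the 1 gene of the 31 called there, where 2.66% of all tested genes were called. Of the 31, 0 were called there without ε/ε replicate 1 or γ1/γ1 replicate 2 or 3, and 2 without ε/ε replicate 3. The count changed with the arrays used: without ε/ε replicate 2, γ1/γ1 replicate 3 or wild-type replicate 1 or 3, 1 of the 31 was called in ε/ε against wild-type cells, and without wild-type replicate 2, 0 were.

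AP-1 is induced through MAP kinases and serum response factor. Of 23 genes of the MAP kinase cascades, 0 were higher and 2 lower in ε/ε, set against wild-type cells, and their median difference was -0.0013. The share called in either direction was 8.70%. Of all tested genes 6.34% were called in either direction, 2.33% as higher. The 2 of the list called as lower were the kinases Rps6ka3 (RSK2, -0.85, adjusted p = 0.0406) and Rps6ka5 (MSK1, -0.79, adjusted p = 0.0119). Both act below the MAP kinases. Rps6ka5 was also lower in ε/ε than in γ1/γ1 cells (-0.67, adjusted p = 0.0342), where 2.66% of all tested genes were called. In that comparison 1 of the 23 was called without ε/ε replicate 2 and 0 without any other 1 array. Without wild-type replicate 2, 0 of the 23 were called in ε/ε against wild-type cells. Without any 1 of ε/ε replicate 2, γ1/γ1 replicates 2 and 3 or wild-type replicates 1 and 3, 1 of the 23 was. Of 7 genes of serum response factor and its cofactors, 0 were called by limma in ε/ε against wild-type cells. Of the 7, 2 had an unadjusted p under 0.05, as did 3016 of the 12170 tested genes. Srf, which binds the CArG box, differed by 1.09 (5.90 ± 0.27 in ε/ε and 4.81 ± 0.57 in wild-type cells, adjusted p = 0.0523) and Elk1 by 0.52 (adjusted p = 0.175).

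Of 8 genes for the turnover of Jun and Fos proteins and transcripts, 2 were higher in ε/ε than in wild-type cells, where 2.33% of all tested genes were; the medians were 0.18 over the 8 and -0.013 over all genes. They were Zfp36l2 (1.26, adjusted p = 0.0310) and Zfp36l1 (1.11, adjusted p = 0.0451), which bind AU-rich elements and promote decay of the transcripts that carry them. The ubiquitin ligase subunits of the list were not among them. These calls rested on all arrays being used: 0 of the 8 were called without any 1 of the ε/ε arrays, without γ1/γ1 replicate 3 or without wild-type replicate 2 or 3, 1 without γ1/γ1 replicate 1 or 2, and 3 without wild-type replicate 1. Zfp36l2 was also higher in ε/ε than in γ1/γ1 cells (1.28, adjusted p = 0.0480), where 1.02% of all tested genes were higher. In that comparison 1 of the 8 was higher without wild-type replicate 1 or 2 and 0 were higher without any other 1 array. Without ε/ε replicate 3, 1 of the 8 was called there as lower. Of 7 partners of AP-1 in lymphocytes, 0 were called by limma in ε/ε against wild-type cells. Of the 7, 1 had an unadjusted p under 0.05, as did 3016 of the 12170 tested genes. Runx1 differed by 0.66 (adjusted p = 0.149) and Irf4 by 0.39 (adjusted p = 0.262).

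Genes known from other cells as AP-1 targets were not called. Of 18 on the list 9 were bright enough to be tested, and 0 were called by limma in any comparison. In ε/ε against wild-type cells 4 of the 9 had an unadjusted p under 0.05, as did 3016 of the 12170 tested genes. In ε/ε against γ1/γ1 cells 5 of the 9 did, as did 2417 of all tested genes. The median difference of the 9 between ε/ε and wild-type cells was 0.0011. Mt1, a metallothionein, differed by 1.11 (adjusted p = 0.0535) and Plaur, the urokinase receptor, by -0.82 (adjusted p = 0.0823). Between ε/ε and γ1/γ1 cells, Mt1 differed by 0.98 (limma adjusted p = 0.108) and Tnf by -1.15 (adjusted p = 0.113). The array measures transcripts, and neither the amount of AP-1 protein nor its binding to DNA was measured.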

How the data were processed

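Total RNA of sorted splenic follicular B cells was extracted with TRIzol, amplified with a Nugen PicoWTA kit and labelled with biotin, per the labels' protocols. The values deposited by the authors are log2 signals, for 41345 probe sets on 9 arrays; the scale was read from the values, with array medians of 3.53 to 3.69. The submitters' processing notes name R 3.3.1, and the background correction, normalization and probe summary are, in the sources used here, not given. Pairs of arrays shared 1404 to 2584 exactly equal values, and 0 pairs of arrays were identical. The number of arrays limits the precision, and scanner files were not analysed here.

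The platform annotation gave 23521 probe sets 1 symbol, 1814 several and 16010 none; only the first were used. The brightest probe set stood for each of 22180 genes, and genes above the array median on at least 3 arrays were tested (12170). One model in limma 3.58.1 under R 4.3.3 held a mean per genotype, with 6 residual degrees of freedom, eBayes and Benjamini-Hochberg adjustment over all tested genes; the threshold was an adjusted p of 0.05. The script was tested on simulated data. Correlations of deviations from the genotype means were -0.09 to 0.16 for the same replicate number and -0.07 to 0.08 for different ones. With 3 arrays per genotype, these overlapping ranges cannot settle whether the numbers pair the arrays. The members, lists and alternatives were chosen with earlier results of these data known. All 8 subunits are named; each list names up to 4 called genes with the largest change, or the 2 with the smallest p as values. For each called subunit the 5 genes with the highest Pearson's r over 9 arrays are named. Promoters came from RefSeq (GRCm38.p6). Figures used matplotlib 3.10.9 under Python 3.11.15. Alternatives covered scaling, filters, probe sets, variance, array weights, arrays used, the replicate block, low or high Xist signal, thresholds and each array left out.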

Additional observations from a re-analysis of the deposited data

How the results depend on the processing

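Of the 8 subunits, 4 were called in ε/ε against wild-type cells with all arrays, 2 with only the 6 arrays compared and 1 to 5 with an array left out (lowest without wild-type replicate 2 or 3); every other setting gave 3 to 5. In γ1/γ1 against wild-type cells 0 were called under every setting. In ε/ε against γ1/γ1 cells 1 was called with all arrays, 2 after quantile normalization or with a filter at percentile 75, 3 at an adjusted p under 0.1, and 0 with no filter, array weights, only the 6 arrays compared or only the 7 arrays with high Xist; with an array left out the count was 0 to 2. The causes were not tested. With the replicate number as a block, 3 subunits were called in ε/ε against wild-type cells, Fos being lost (adjusted p = 0.0812), 1 in ε/ε against γ1/γ1 cells and 0 in γ1/γ1 against wild-type cells. Whether the numbers pair the arrays was not settled. A few small differences changed sign. Fosl2 in ε/ε minus γ1/γ1 was 0.016 after quantile normalization, 0.042 after median centring, 0.046 with array weights, 0.12 over the 7 arrays with high Xist and -0.10 to 0.099 with an array left out (0.036 without ε/ε replicate 3). In γ1/γ1 minus wild-type, leaving out an array gave -0.19 to 0.46 for Fosb and -0.055 to 0.30 for Atf3, with -0.10 and -0.18 for Fosb without γ1/γ1 replicates 2 and 3, and -0.022 and -0.043 for Atf3 without wild-type replicates 1 and 3. Over all genes, the 772 called in ε/ε against wild-type cells became 424 with only the 6 arrays compared, 512, 186 and 210 without wild-type replicates 1, 2 and 3, 347 with a log2 fold change of at least 1 and 1626 at an adjusted p under 0.1. The 324 called in ε/ε against γ1/γ1 cells (124 higher, 200 lower) became 56 with only the 6 arrays compared, 88 over the 7 arrays with high Xist, 513 with low Xist as a covariate, 173 with a log2 fold change of at least 1, 803 at an adjusted p under 0.1 and 122 to 330 with an array left out; the split was 203 higher and 177 lower after quantile normalization and 151 and 126 after median centring. The 5 called in γ1/γ1 against wild-type cells became 0 with only the 6 arrays compared or the block, 3 over the 7 arrays with high Xist, and 0 to 6 with an array left out. The fits without an array for the gene lists were added after the data were seen.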
